A study of Mus musculus with 3 samples.

Results

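The homeobox transcription factor genes of the 4 mouse Hox clusters were followed in embryonic male gonads that lack Cyp26b1. The members were the genes named Hoxa, Hoxb, Hoxc and Hoxd, taken by name and not by their measured values. Of 38 such genes, 36 had at least 1 probe (43 probes in all), and Hoxc11 and Hoxd8 had none that could be named here. The 36 stand among 16354 genes with a named probe, and 31 of them stand among the 13273 genes bright enough to be tested. Gonads were dissected from male embryos of the MCH mouse line with the genotype Cyp26b1-/-, at E12.5, E13.5 and E14.5 (embryonic days 12.5, 13.5 and 14.5). Total RNA was hybridised to 1-colour Agilent expression arrays, with 2 arrays at each stage, which the series calls biological duplicates. All 3 groups carry the same mutation and were given no other treatment that the labels name. The labels do not give the allele, or whether embryos were pooled, and arrays of a control genotype were not analysed here. Every comparison below is therefore one stage of the mutant gonad with another.

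Hox genes lie in tandem in each cluster. Those at one end (low paralogue numbers) are turned on early and mark the head end of the trunk, and those at the other end (high numbers) are turned on later and mark the tail end. Their proteins bind DNA through a homeodomain, often together with TALE homeodomain partners of the Pbx, Meis and Pknox families. Retinoic acid switches on the low-numbered genes in the hindbrain and trunk, and Cyp26b1 is a cytochrome P450 that breaks retinoic acid down. In the urogenital system the posterior genes Hoxa9, Hoxa10, Hoxa11 and Hoxa13 are known for patterning the reproductive ducts.

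Each signal below is the log2 of the background-subtracted spot intensity minus that of the 75th percentile of its array, called the log2 signal. It can be compared between stages for 1 probe, and not between genes. On the 6 arrays 65.9% to 70.8% of spots were well above background, as flagged by the scanner software, and 0 were saturated. The median spot intensity before scaling was 154 and 117 on the E12.5 arrays. It was 104 and 94.5 on the E13.5 arrays, and 91.7 and 106 on the E14.5 arrays. Intensities before scaling, given below for some genes, thus lean toward lower values at the later stages. Duplicate arrays differed with an SD of 0.362, 0.295 and 0.333 on the log2 scale over the 13273 genes for the 3 stages in order, and of 0.382, 0.444 and 0.298 over the 31 Hox genes. The 2 arrays of E12.5 shared a slide and a scan, and the 4 arrays of the later stages shared another slide and another scan. What separates E12.5 from the other stages cannot be told apart from a slide or scan difference, and E13.5 and E14.5 are the one pair of stages on the same slide. Cyp26b1 was above background on every array, with log2 signals of 4.96 and 4.73 on the E12.5 arrays, 4.29 and 4.20 on the E13.5 arrays and 4.27 and 3.83 on the E14.5 arrays. Whether its probe lies in the deleted part is not given, so it does not check the genotype. All 10 Sertoli cell markers examined, among them Sox9 and Amh, were above background on every array.

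Of the 36 Hox genes with a probe, 25 were flagged as well above background on each of the 6 arrays. With both arrays of a stage asked to be above background, there were 27 at the first stage, 30 at E13.5 and 29 at the last. Of all genes with a probe, 77.2%, 79.3% and 78.7% met the same demand at the 3 stages in order. Hoxb1, Hoxb8, Hoxd1 and Hoxd11 were above background on neither E12.5 array and on all 4 later arrays, as were 185 genes of all those with a probe. Hoxa11 was the reverse, above background on both E12.5 arrays and on none of the later ones, as were 47 genes of all. Hoxa6 was missed on 1 E14.5 array. Hoxa13, Hoxc12, Hoxc13, Hoxd12 and Hoxd13, the genes at the tail end of 3 of the clusters, were above background on no array, and no change is given for them. Their log2 signals ran from -8.95 to -6.18, both of them Hoxa13. Hoxb13, known for its role in the prostate and the tail, was the one gene of paralogue group 13 that was above background, and it was so on all 6 arrays. A looser rule, a spot median over 2 background SDs above the local background, put 31, 31 and 32 genes above background on both arrays at the 3 stages.

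**Figure D1:**
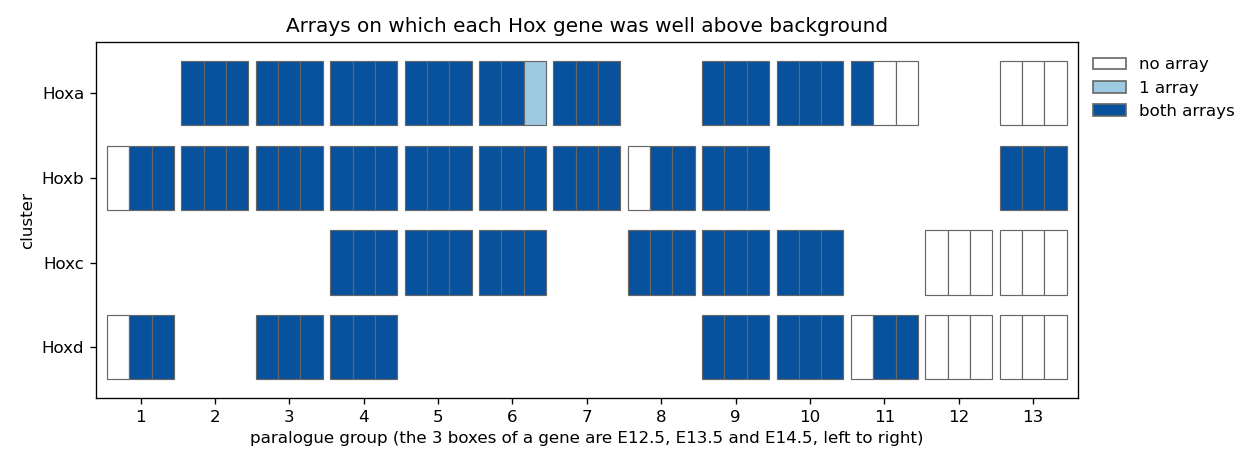
Each group of 3 boxes is 1 Hox gene, placed by its cluster (vertical) and its paralogue group from 1 to 13 (horizontal), with E12.5, E13.5 and E14.5 from left to right, and the shade gives the number of the 2 arrays of that stage on which it was well above background. Hoxb1, Hoxb8, Hoxd1 and Hoxd11 have an empty first box, Hoxa11 has only its first box filled, and Hoxa13, Hoxc12, Hoxc13, Hoxd12 and Hoxd13 are empty throughout. Places without boxes are genes that are not among the members with a probe.

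Between E12.5 and E13.5, 15 of the 31 tested Hox genes passed the test (limma, Benjamini-Hochberg adjusted p of 0.05), 8 of them higher and 7 lower at E13.5, and 16 did not. Of all genes tested 32.1% passed in this comparison, 18.1% higher and 14.0% lower. Between E12.5 and E14.5, 16 Hox genes passed, 9 higher and 7 lower, where the share of all genes was 46.6%, with 25.5% higher and 21.1% lower. The Hox genes' shares were 48.4% and 51.6%, so that at E14.5 the share was close to that of all genes. The median log2 change over the 31 genes was -0.06 at E13.5 and 0.03 at E14.5, against 0.04 and 0.03 over all genes tested. The 2 comparisons share their E12.5 arrays, so they do not stand as separate evidence, and 17 genes passed in at least 1 of them. Hoxa11, Hoxb1, Hoxb8, Hoxd1 and Hoxd11 entered the test only through the stages where they are bright, since a gene was kept if it was above background on both arrays of any stage. They had to differ to some degree, so their 5 calls in each comparison, and the counts that hold them, are a description. With the test kept to genes above background on all 6 arrays, 12 of 25 Hox genes passed on the E13.5 arrays and 10 on the E14.5 arrays, beside 35.0% and 48.6% of all genes. With a change of at least 2-fold also asked for, 7 and 6 Hox genes passed, against 8.66% and 14.3% of all genes. Of these, 5 and 5 were the genes just named, and the others were Hoxd4 at both stages and Hoxc8 at E13.5.

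These counts, and the shares of all genes that passed, were lower in each fit that left out 1 array. Such a fit has fewer degrees of freedom, so a call lost there does not show that 1 array carried it. At E13.5, 8 Hox genes passed without E12.5 replicate 1, 7 without E12.5 replicate 2, 9 without E13.5 replicate 1 and 8 without E13.5 replicate 2, where 16.0%, 19.5%, 15.0% and 10.6% of all genes did. At E14.5, 10 passed without E12.5 replicate 1, 10 without E14.5 replicate 1 and 8 without E14.5 replicate 2, where the shares were 34.7%, 36.2% and 29.3%. Scaling each array by its median in place of the 75th percentile moved the median of all genes at E14.5 from 0.03 to -0.12, and that of the Hox genes likewise from 0.03 to -0.12. The 14 Hox genes then called at E14.5 were 6 higher and 8 lower, and of all genes called 41.1% were higher in place of 54.8%. Under quantile normalization 16 were called, 7 higher and 9 lower, and under normexp 15, 10 higher and 5 lower.

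By cluster, at E13.5 the Hoxa cluster had 0 genes higher and 4 lower of 9 tested, and at E14.5 1 higher and 4 lower. The Hoxb cluster had 3 higher and 2 lower of 10 at both stages. The Hoxc cluster had 2 higher and 0 lower of 6, and the Hoxd cluster 3 higher and 1 lower of 6, also at both stages. By paralogue number, the central groups 4 to 8 had 4 higher and 2 lower of 14 at E13.5, and the posterior groups 9 to 13 had 2 higher and 4 lower of 10. The anterior groups 1 to 3 had 2 higher and 1 lower of 7 at both stages. On the E14.5 arrays the central groups had 5 higher and 3 lower, and the posterior groups 2 higher and 3 lower. Among all genes tested, 18.1% were higher and 14.0% lower on the E13.5 arrays. Those shares were 25.5% and 21.1% for the last stage. The calls counted here include Hoxa11, Hoxb1, Hoxb8, Hoxd1 and Hoxd11, which had to differ to some degree. These splits are counts, and no test of a difference between clusters or groups was made.

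**Figure D2:**
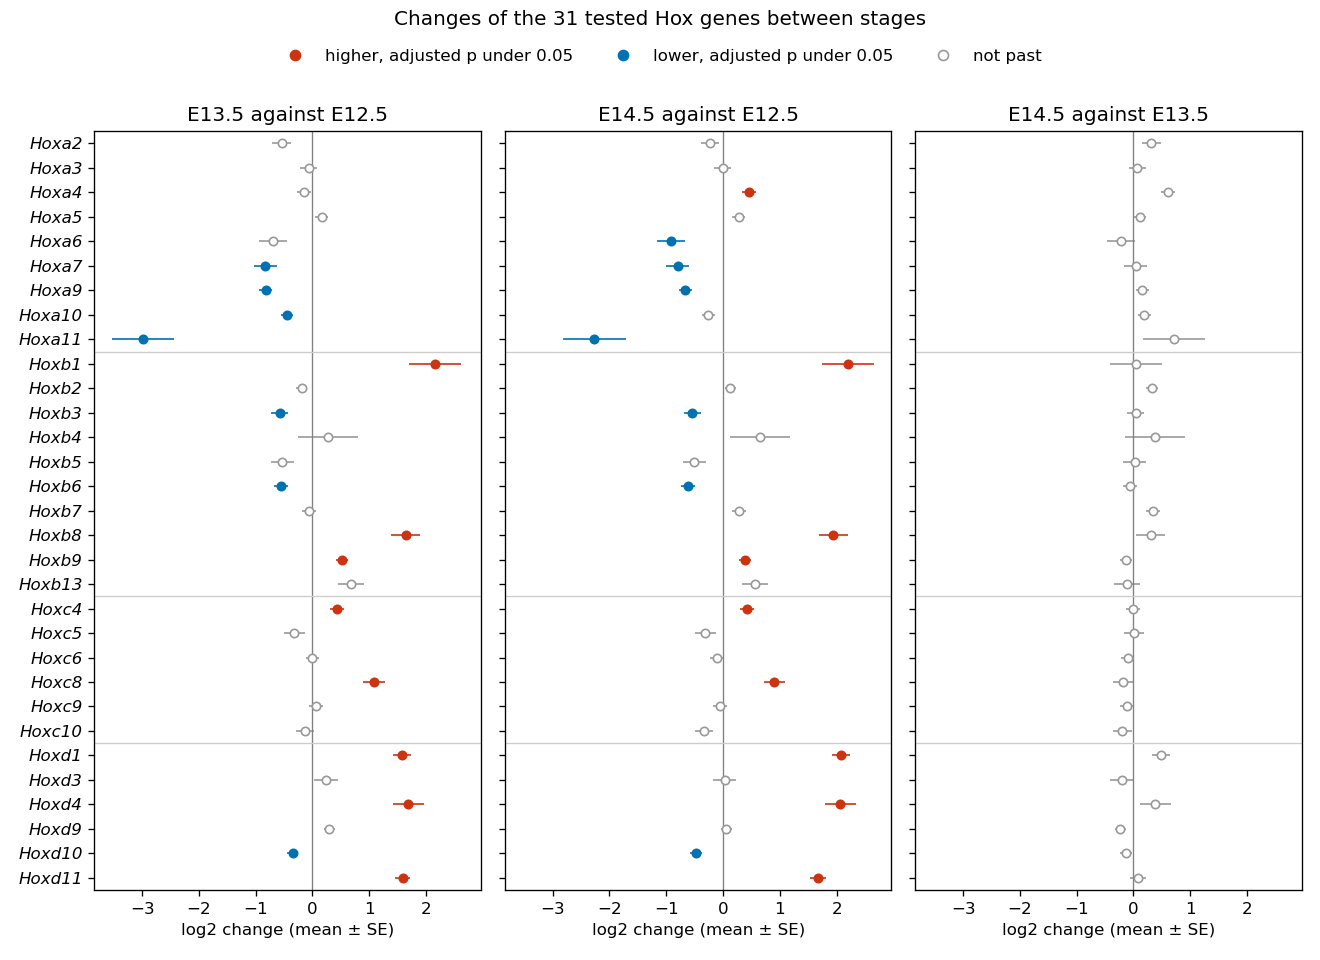
Each row is 1 of the 31 tested Hox genes in cluster order, and each panel is 1 comparison of stages, with the log2 change (mean ± SE from the fit, 2 arrays a stage) on the horizontal axis. Red points are higher and blue points lower at an adjusted p under 0.05, and open points did not pass. Filled points lie in both panels against E12.5, 15 in the first and 16 in the second, and the panel of E14.5 against E13.5 holds none.

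In the Hoxd cluster Hoxd1, Hoxd4 and Hoxd11 rose after E12.5 and Hoxd10 fell. Hoxd4, a gene of the hindbrain and neck vertebrae that retinoic acid switches on through an enhancer beside the gene, had log2 signals of 0.16 and -0.26 on the E12.5 arrays, 1.26 and 2.01 on the E13.5 arrays and 2.12 and 1.92 on the E14.5 arrays. All 4 later arrays lay above both E12.5 arrays. The log2 change from E12.5 was 1.69 ± 0.27 (SE; 3.22-fold; limma adjusted p = 0.00923) at E13.5, and 2.07 ± 0.27 (4.19-fold; adjusted p = 0.00295) at E14.5. The intensities before scaling were 2006 and 1164 on the E12.5 arrays, 2949 and 4042 on the E13.5 arrays and 4233 and 4143 on the E14.5 arrays, so the rise is present without the scaling as well. Hoxd3, the neighbour whose annotated span overlaps that of Hoxd4, passed in no comparison, with log2 changes of 0.24 at E13.5 and 0.03 at E14.5.

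Hoxd1, which is known from the hindbrain and from pain-sensing neurons, had log2 signals of -6.47 and -6.81 on the E12.5 arrays, -5.19 and -4.92 on the E13.5 arrays and -4.56 and -4.58 on the E14.5 arrays. Neither E12.5 array was well above background, so its rise is a bound, set for such genes on each array of the dim stage by the dimmest spot still flagged above background, or by the gene's own spot where that was brighter. The adjusted p given with a bound is that of the fit, for a gene that entered the test through its bright stages. A bound holds only under the background correction used here. With the normexp correction described below, the log2 changes of all Hox genes given a bound were smaller than their bounds. Hoxd1 was at least 2.82-fold higher at E13.5 (adjusted p = 0.00307) and at least 3.95-fold higher at E14.5 (adjusted p = 0.000743). Hoxd11, a posterior gene of the forearm and kidney, had log2 signals of -6.71 and -7.06 on the E12.5 arrays, -5.30 and -5.30 on the E13.5 arrays and -5.22 and -5.22 on the E14.5 arrays. It too was above background on the later arrays only, and was at least 2.58-fold higher at E13.5 (adjusted p = 0.00274) and at least 2.73-fold higher at E14.5 (adjusted p = 0.000865). The annotated span of Hoxd11 overlaps that of Hoxd10, which fell. Hoxd10, a posterior gene of the hindlimb, had log2 signals of 0.05 and 0.06 on the E12.5 arrays, -0.23 and -0.36 on the E13.5 arrays and -0.41 and -0.44 on the E14.5 arrays, with no overlap between E12.5 and the later arrays. Its log2 change was -0.35 ± 0.10 (adjusted p = 0.0466) at E13.5, and -0.48 ± 0.10 (adjusted p = 0.013) at E14.5. Hoxd9, another posterior gene of the limb and urogenital region, did not pass, at 0.29 and 0.06.

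The calls of Hoxd4 held in every setting run and without any 1 array. Those of Hoxd1 and Hoxd11 held in every setting that could test them, which leaves out the one kept to genes above background on all 6 arrays. Normexp background correction, which adds an offset of 50 that exceeds every intensity of Hoxd1 and Hoxd11, lowered their log2 changes at E13.5 to 0.83 and 0.74 from 1.58 and 1.59, and at E14.5 to 0.97 and 0.87 from 2.07 and 1.67. The call of Hoxd10 at E13.5 was lost without any 1 of the 6 arrays (adjusted p 0.0697 to 0.233) and that at E14.5 without E14.5 replicate 2 (0.0581). That at E13.5 was also lost under median scaling (0.0877), with normexp (0.0948), without the filter on dim genes (0.0769), with all probes fitted (0.0655) and with the array number as a replicate block (0.067). The promoters of the 3 Hoxd genes called higher are given here, of which Hoxd1 and Hoxd11 entered the test through their bright stages. That of Hoxa9 is added, a gene of the Hoxa cluster that fell at both stages without any 1 array, by less than 2-fold. Each is the 250 bases before an annotated start in RefSeq (build GRCm38.p6, 5′ to 3′ on the gene's strand), and capitals mark matches to the motifs listed after them. Hoxd4 is at chr2:74721728-74721977 (+ strand), Hoxd1 at chr2:74762730-74762979 (+ strand), Hoxd11 has starts after chr2:74679308-74679557 (+ strand) and chr2:74682073-74682322 (+ strand), and Hoxa9 is at chr6:52227371-52227620 (- strand).
Hoxd4: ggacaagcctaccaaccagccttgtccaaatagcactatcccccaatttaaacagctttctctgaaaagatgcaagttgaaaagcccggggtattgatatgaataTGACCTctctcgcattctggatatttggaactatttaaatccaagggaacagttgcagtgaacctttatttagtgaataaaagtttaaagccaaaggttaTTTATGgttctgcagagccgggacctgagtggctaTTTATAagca
Hoxd1: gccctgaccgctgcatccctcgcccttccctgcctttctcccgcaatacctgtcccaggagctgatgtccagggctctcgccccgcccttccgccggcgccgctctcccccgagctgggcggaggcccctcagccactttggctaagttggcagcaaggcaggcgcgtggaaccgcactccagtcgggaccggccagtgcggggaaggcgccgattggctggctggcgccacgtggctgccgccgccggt
Hoxd11, first start: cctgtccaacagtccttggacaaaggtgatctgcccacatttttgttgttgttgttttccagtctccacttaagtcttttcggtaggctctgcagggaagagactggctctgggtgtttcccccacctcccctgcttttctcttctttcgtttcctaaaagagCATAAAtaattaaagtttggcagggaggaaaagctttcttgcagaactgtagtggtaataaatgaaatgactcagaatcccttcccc
Hoxd11, second start: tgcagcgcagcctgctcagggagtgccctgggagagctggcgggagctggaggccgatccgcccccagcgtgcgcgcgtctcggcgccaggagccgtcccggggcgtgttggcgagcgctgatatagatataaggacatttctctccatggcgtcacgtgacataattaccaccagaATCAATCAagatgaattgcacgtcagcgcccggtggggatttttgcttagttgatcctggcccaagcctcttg
Hoxa9: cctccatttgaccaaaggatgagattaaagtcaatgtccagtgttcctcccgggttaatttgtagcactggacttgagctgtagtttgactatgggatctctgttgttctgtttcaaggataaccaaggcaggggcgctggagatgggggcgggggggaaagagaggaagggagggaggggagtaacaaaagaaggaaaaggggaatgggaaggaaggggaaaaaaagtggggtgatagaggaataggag

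The motifs were searched on both strands as AGGTCA and AGTTCA (half-sites of retinoic acid receptors), TTTATG (a core of Cdx sites), TGATTNAT (a composite of Hox and Pbx sites) and TATAAA (the TATA box). A stretch could count for more than 1 motif. The Hoxd4 window held the first of the half-sites, the Cdx core and the TATA box, each at 1 place. The first Hoxd11 window held TTTATG and the second TGATTNAT, at 1 place each, and the windows of Hoxd1 and Hoxa9 held none of the 5 motifs. RefSeq windows were at hand for 22 of the 38 members, in 24 entries, of 32851 entries in all. AGGTCA was in 25% of the member entries and 14% of all entries, AGTTCA in 8.33% and 11.8%, TTTATG in 20.8% and 10.8%, TGATTNAT in 8.33% and 2.82%, and TATAAA in 16.7% and 12.4%. The direct repeats DR2 and DR5, the paired form of the half-sites, were in 0 member entries and in 0.174% and 0.0883% of all entries. The GC content of the shown windows was 40.4% for Hoxd4, 71.6% for Hoxd1, 44.8% and 60.4% for Hoxd11 and 49.6% for Hoxa9. A match is a string of letters in the window, and the arrays did not measure binding.

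In the Hoxa cluster Hoxa6, Hoxa7, Hoxa9, Hoxa10 and Hoxa11, a run of neighbours, were lower after E12.5 in at least 1 comparison, and Hoxa4 was higher at E14.5. Markers of the mesonephros and its duct, the tissue beside the gonad, also moved over the same stages. Of 13 tested, 4 were lower and 1 higher on the E13.5 arrays, beside 14.0% and 18.1% of all genes. On the E14.5 arrays 7 were lower and 2 higher, beside 21.1% and 25.5% of all genes. The part of these markers in the Hoxa changes was not tested. Hoxa11, which patterns the uterus, the male ducts and the forearm, had log2 signals of -4.58 and -5.01 on the E12.5 arrays, -7.15 and -8.40 on the E13.5 arrays and -6.40 and -7.72 on the E14.5 arrays. It was well above background at E12.5 only. Hoxa11 was at least 4.85-fold lower at E13.5 (adjusted p = 0.0131) and at least 4.81-fold lower at E14.5 (adjusted p = 0.0191), from a test it entered through E12.5. At E14.5 its own spots were brighter than the dimmest flagged ones, so that the bound there is the fitted change itself. Its duplicates lay far apart at the later stages, where the spots were near background. Hoxa10, which acts in the uterus and in descent of the testis, had log2 signals of -3.74 and -3.61 on the E12.5 arrays, -4.07 and -4.17 on the E13.5 arrays and -3.89 and -3.97 on the E14.5 arrays. The E12.5 arrays lay above all later arrays, but only E13.5 passed, at -0.45 ± 0.11 (adjusted p = 0.0285), and E14.5 did not, at -0.26 ± 0.11 (adjusted p = 0.102).

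Hoxa9, a regulator of blood stem cells and of the posterior trunk, had log2 signals of -2.13 and -2.02 on the E12.5 arrays, -2.98 and -2.81 on the E13.5 arrays and -2.78 and -2.70 on the E14.5 arrays. Its E12.5 arrays lay apart from the later arrays by more than any pair of duplicates did. The log2 change was -0.82 ± 0.11 (1.76-fold lower; adjusted p = 0.00624) at E13.5, and -0.66 ± 0.11 (1.58-fold lower; adjusted p = 0.00644) at E14.5. Hoxa7, a gene of the thoracic skeleton, had log2 signals of 0.86 and 0.60 on the E12.5 arrays, -0.02 and -0.19 on the E13.5 arrays and 0.19 and -0.33 on the E14.5 arrays. It fell by 0.83 ± 0.20 on the log2 scale at E13.5 (adjusted p = 0.0273) and by 0.80 ± 0.20 at E14.5 (adjusted p = 0.0214). The E14.5 duplicates of Hoxa7 differed by more than its duplicates at the other stages, but stayed below E12.5. Hoxa6, also a gene of the thoracic region, had log2 signals of -4.83 and -5.18 on the E12.5 arrays, -5.40 and -6.00 on the E13.5 arrays and -5.76 and -6.08 on the E14.5 arrays. Only E14.5 passed for it, at -0.91 ± 0.24 (adjusted p = 0.0256), while E13.5 was at -0.69 ± 0.24 (adjusted p = 0.0746).

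Hoxa4, a gene of the neck vertebrae, had log2 signals of -3.98 and -3.88 on the E12.5 arrays, -4.21 and -3.95 on the E13.5 arrays and -3.47 and -3.47 on the E14.5 arrays. The E14.5 arrays lay above the other 4, which overlapped. Its log2 change was 0.46 ± 0.12 at E14.5 (adjusted p = 0.0269) and -0.15 ± 0.12 at E13.5 (adjusted p = 0.381). Its intensities before scaling were 114 and 94.4 on the E12.5 arrays and 87.9 and 98.9 on the E14.5 arrays, which overlap, so this rise is relative to the other genes on each array. The annotated spans of Hoxa4, Hoxa5 and Hoxa6 overlap that of Hoxa3, so a probe in a shared stretch could not be given to 1 of them by its name. Hoxa2, Hoxa3 and Hoxa5, known in the hindbrain, the pharyngeal arches and the lung, passed in no comparison. Hoxa2 came nearest, at -0.55 ± 0.16 at E13.5 with an adjusted p of 0.0502.

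Most calls of the Hoxa cluster were lost in at least 1 of the fits that left out an array. Hoxa10 at E13.5 was lost without any 1 of the E12.5 and E13.5 arrays (adjusted p 0.0582 to 0.154), and so was Hoxa7 at E13.5 (0.0589 to 0.125). Hoxa4 at E14.5 was lost without any 1 of the E12.5 and E14.5 arrays (0.0626 to 0.098). Without E12.5 replicate 1, Hoxa11 was lost at E13.5 (0.0673) and at E14.5 (0.0906), Hoxa7 at E14.5 (0.0975) and Hoxa6 at E14.5 (0.115). Without E14.5 replicate 2 the same 3 genes were lost at E14.5, at 0.075, 0.0749 and 0.116. Hoxa11 was lost at E14.5 without E12.5 replicate 2 (0.06) and at E13.5 without E13.5 replicate 2 (0.0531). Under normexp correction Hoxa11 was at -0.44 at E13.5 and at -0.19 at E14.5 (adjusted p = 0.209), and Hoxa10 at E13.5 and Hoxa6 at E14.5 lost their sign, at 0.00548 (adjusted p = 0.975) and 0.056 (0.725). Median scaling ended the calls of Hoxa4 (0.112) and Hoxa10 (0.0524), as did a trended prior (0.0722 and 0.0927). Fitting without the filter on dim genes ended those of Hoxa4, Hoxa6, Hoxa7 at E13.5 and Hoxa10 (0.0507, 0.0541, 0.0579 and 0.0546). Hoxa4 was also lost under quantile normalization (0.0599) and with the mean of its probes (0.105).

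**Figure D3:**
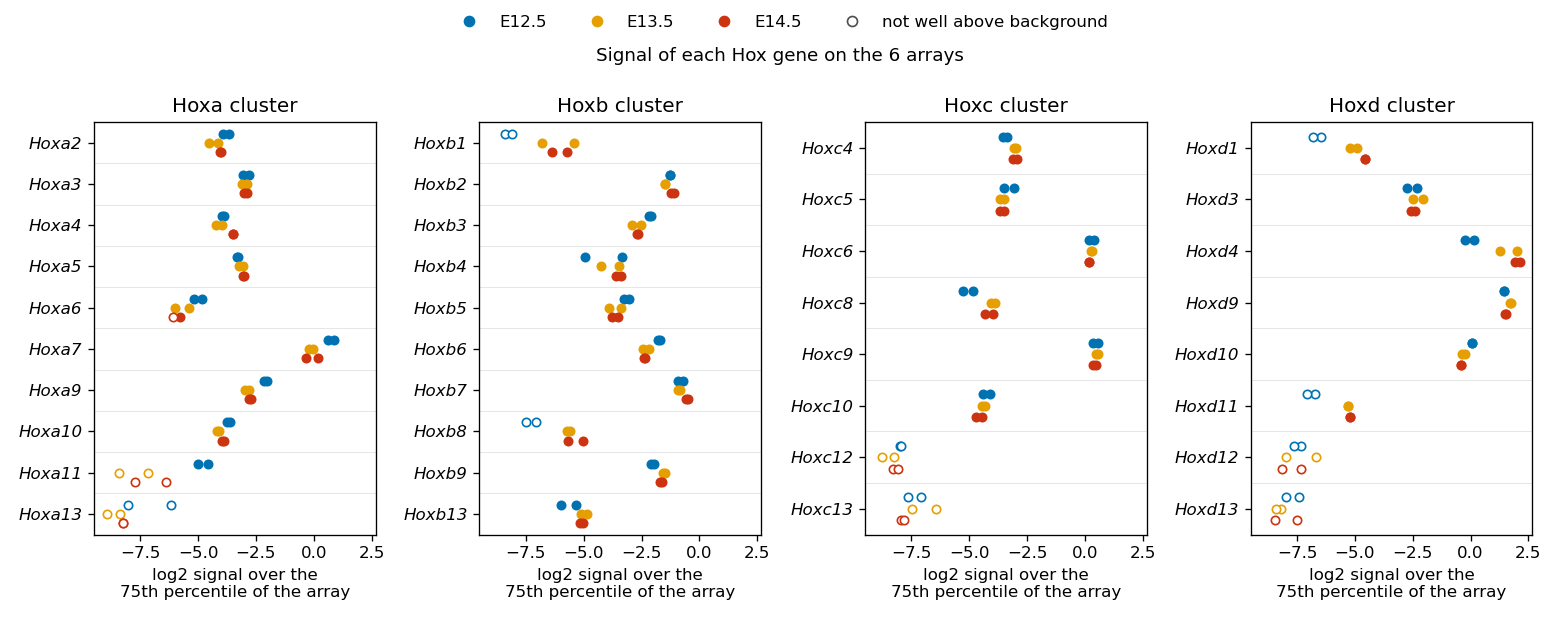
Each panel is 1 cluster and each row 1 Hox gene, with the log2 signal relative to the 75th percentile of the array on the horizontal axis and 1 point per array, blue for E12.5, orange for E13.5 and red for E14.5. Open points were not well above background. The later points of Hoxd1, Hoxd4, Hoxd11, Hoxb1 and Hoxb8 lie to the right of E12.5 and those of Hoxa7, Hoxa9 and Hoxa11 to the left, and positions are not comparable between rows, which are different probes.

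In the Hoxb cluster Hoxb1, Hoxb8 and Hoxb9 rose after E12.5, and Hoxb3 and Hoxb6 fell. Hoxb1, which sets the identity of a hindbrain segment and responds directly to retinoic acid, had log2 signals of -8.39 and -8.11 on the E12.5 arrays, -6.78 and -5.41 on the E13.5 arrays and -5.73 and -6.37 on the E14.5 arrays. It was not well above background at E12.5 and was dim throughout, with intensities before scaling of 5.36 and 5.03 on the E12.5 arrays, 11.2 and 23.6 on the E13.5 arrays and 18.4 and 13.3 on the E14.5 arrays. Hoxb1 was at least 2.03-fold higher at E13.5 (adjusted p = 0.0192) and at least 2.10-fold higher at E14.5 (adjusted p = 0.0117), and like Hoxb8 it entered the test through the later stages only. Hoxb8, a gene of the thoracic spinal cord and of blood precursors, had log2 signals of -7.06 and -7.51 on the E12.5 arrays, -5.72 and -5.57 on the E13.5 arrays and -5.02 and -5.67 on the E14.5 arrays on the brighter of its 2 probes. It was at least 2.29-fold higher at E13.5 (adjusted p = 0.0081) and at least 2.83-fold higher at E14.5 (adjusted p = 0.00279). The other Hoxb8 probe was above background on no array, and with the mean of both probes the calls were lost (0.35, adjusted p = 0.111, and 0.37, adjusted p = 0.0825).

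Hoxb9, a gene of the thoracic ribs, had log2 signals of -1.98 and -2.09 on the E12.5 arrays, -1.56 and -1.49 on the E13.5 arrays and -1.70 and -1.60 on the E14.5 arrays. The later arrays lay above E12.5, with changes of 0.51 ± 0.11 (adjusted p = 0.0183) and 0.39 ± 0.11 (adjusted p = 0.029). Before scaling its intensities were 454 and 326 on the E12.5 arrays, 418 and 357 on the E13.5 arrays and 300 and 361 on the E14.5 arrays, which overlap between E12.5 and both later stages, so this rise is one relative to the other genes on each array. Hoxb3, a hindbrain gene whose annotated span overlaps that of Hoxb4, had log2 signals of -2.16 and -2.09 on the E12.5 arrays, -2.89 and -2.52 on the E13.5 arrays and -2.70 and -2.63 on the E14.5 arrays. It fell by 0.58 ± 0.15 at E13.5 (adjusted p = 0.0312) and by 0.54 ± 0.15 at E14.5 (adjusted p = 0.0273). Hoxb6, of the thoracic region, had log2 signals of -1.70 and -1.79 on the E12.5 arrays, -2.42 and -2.18 on the E13.5 arrays and -2.37 and -2.35 on the E14.5 arrays. The gene fell by 0.56 ± 0.12 at E13.5 (adjusted p = 0.021) and by 0.62 ± 0.12 at E14.5 (adjusted p = 0.0101), and E12.5 did not overlap with the later arrays for either gene.

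Hoxb2, Hoxb4, Hoxb5, Hoxb7 and Hoxb13 passed in no comparison. The Hoxb4 duplicates at E12.5, at -3.34 and -4.93, lay farther apart than those of any other tested Hox gene, so its changes of 0.27 ± 0.53 and 0.65 ± 0.53 are poorly measured. Hoxb13 stood at 0.68 ± 0.23 (adjusted p = 0.0693) and 0.56 ± 0.23 (adjusted p = 0.0916). Several calls here were lost in fits that left out 1 array. Hoxb1 was lost at E13.5 without E12.5 replicate 1 (0.0865) or 2 (0.0648), and at E14.5 without E12.5 replicate 1 (0.0595) or E14.5 replicate 1 (0.0521). Hoxb3 was lost at E13.5 without either E12.5 array or E13.5 replicate 1 (0.0866 to 0.129) and at E14.5 without any 1 of the E12.5 and E14.5 arrays (0.0726 to 0.102). Hoxb6 was lost at E13.5 without either E12.5 array or E13.5 replicate 1 (0.0557 to 0.105), and it passed at E14.5 in every setting but the 2-fold minimum. Hoxb9 was lost at E13.5 without E12.5 replicate 2 or either E13.5 array (0.0653 to 0.107), and at E14.5 without any 1 of the 6 arrays (0.052 to 0.121). At E14.5 it was also lost under median scaling (0.195) and normexp (0.0607), and without the filter on dim genes (0.0512), which ended both calls of Hoxb3 as well (0.0622 and 0.0535). All these are adjusted p-values from limma. Normexp left Hoxb1 and Hoxb8 called, with log2 changes of 0.79 and 0.52 at E13.5 and of 0.81 and 0.66 at E14.5.

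In the Hoxc cluster Hoxc4 and Hoxc8 rose, and no gene fell. Hoxc8, a gene of the brachial spinal cord and the thoracic skeleton, had log2 signals of -5.25 and -4.85 on the E12.5 arrays, -4.06 and -3.87 on the E13.5 arrays and -3.98 and -4.31 on the E14.5 arrays. All later arrays lay above E12.5, with changes of 1.08 ± 0.19 (2.12-fold; adjusted p = 0.011) and 0.90 ± 0.19 (1.87-fold; adjusted p = 0.0118). The call was lost at E13.5 without E13.5 replicate 2 (0.0624) and at E14.5 without E14.5 replicate 1 (0.0507). Hoxc4, a gene of the neck and of lymphocytes, had log2 signals of -3.54 and -3.37 on the E12.5 arrays, -3.06 and -2.98 on the E13.5 arrays and -2.92 and -3.13 on the E14.5 arrays. Its changes of 0.43 ± 0.12 (adjusted p = 0.0438) and 0.43 ± 0.12 (adjusted p = 0.0338) passed by little. They were lost at E13.5 without any 1 of the E12.5 and E13.5 arrays (0.0685 to 0.189), at E14.5 without any 1 of the 6 arrays (0.0502 to 0.137), and with the array number as a replicate block (0.0709 and 0.0565). Median scaling, quantile normalization, a trended prior and fitting without the filter ended both calls as well (adjusted p 0.0596 to 0.188), and fitting all probes ended that at E13.5 (0.0593). Its intensities before scaling, 154 and 135 on the E12.5 arrays, 148 and 127 on the E13.5 arrays and 128 and 126 on the E14.5 arrays, were no higher at the later stages. Hoxc5, Hoxc6, Hoxc9 and Hoxc10 passed in no comparison. Hoxc6 and Hoxc9, of the thoracic region, stood at -0.11 ± 0.11 and -0.05 ± 0.12 at E14.5.

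Over the 14 genes that passed in no comparison, the log2 change from E12.5 ran from -0.55 (Hoxa2) to 0.68 (Hoxb13) at E13.5 and from -0.51 (Hoxb5) to 0.65 (Hoxb4) at E14.5. A change that did not pass is not shown to be absent with 2 arrays a stage. Where a Hox gene had several probes, those well above background on all 6 arrays did not always give like values. The log2 change of the other Hoxa3 probe was 0.60 at E14.5 where that of the probe used was -0.0027, and the other Hoxd3 probe was at -0.47 where the one used was at 0.03. The 2 Hoxd9 probes were at 0.29 and 0.49 at E13.5.

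Within the later slide, E14.5 against E13.5, 0 of the 31 Hox genes passed (limma), where 7 of all genes passed, or 0.0527%. At an unadjusted p under 0.05 there were 4 Hox genes, or 12.9%, against 18.4% of all genes tested, and 0 Hox genes passed under any other setting. The 4 were Hoxa4 (0.61 ± 0.12, adjusted p = 0.104), Hoxb2 (0.32 ± 0.10, 0.199), Hoxb7 (0.35 ± 0.12, 0.227) and Hoxd1 (0.49 ± 0.16, 0.206), all of them with E14.5 above E13.5. Over the 31 genes the log2 change ran from -0.23 (Hoxd9) to 0.72 (Hoxa11), with a median of 0.04 against -0.01 for all genes. Every Hox call thus came from a comparison across the 2 slides.

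Of the TALE partners, with which Hox proteins bind DNA, 3 are given here for E14.5 against E12.5. Pbx3 rose by 0.91 ± 0.13 (adjusted p = 0.00381), with log2 signals of 0.75 and 0.57 on the E12.5 arrays, 1.09 and 1.34 on the E13.5 arrays and 1.54 and 1.61 on the E14.5 arrays. Pbx4 rose by 0.78 ± 0.11 (adjusted p = 0.00339). Pknox1 fell by 0.64 ± 0.14 (adjusted p = 0.0126).

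Of 17 upstream regulators of Hox genes (retinoic acid enzymes, receptors and binding proteins, Cdx factors, and hindbrain regulators), 15 had a probe and 14 were tested, and 6 were higher and 4 lower at E14.5 than at E12.5, where 25.5% and 21.1% of all genes were. Aldh1a3, which makes retinoic acid, rose by 0.98 ± 0.15 (adjusted p = 0.00444). Cdx2, which switches on the central and posterior Hox genes in the trunk, had log2 signals of -5.22 and -5.59 on the E12.5 arrays, -6.29 and -8.61 on the E13.5 arrays and -8.63 and -8.47 on the E14.5 arrays and was above background on no E14.5 array. It was at least 4.42-fold lower there (adjusted p = 0.0138). Crabp1, which binds retinoic acid in the cell, rose by 0.86 ± 0.19 (adjusted p = 0.0133), and Cyp26a1, which breaks it down and is itself induced by it, rose by 0.85 ± 0.25 (adjusted p = 0.0362). Cyp26b1 fell by 0.80 ± 0.17 (adjusted p = 0.0135). Of the other members of the list, Aldh1a2 and Cdx1 did not pass, and Cdx4 was above background on no array.

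Polycomb and trithorax genes, whose products keep Hox clusters silent or active, numbered 18 with a probe, all tested, and 6 were higher and 5 lower at E14.5, again beside 25.5% and 21.1% of all genes. Ring1, a ubiquitin ligase of the Polycomb complexes, rose by 0.99 ± 0.14 (adjusted p = 0.00363), and Cbx8, which reads the Polycomb histone mark, rose by 0.94 ± 0.22 (adjusted p = 0.0178). Jarid2, a partner of the methyltransferase complex, fell by 0.82 ± 0.14 (adjusted p = 0.00574). Ezh1, the methyltransferase of non-dividing cells, rose by 0.66 ± 0.11 (adjusted p = 0.00625). The median over the list was -0.02.

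Markers of the cell types that a dissected gonad can hold moved over the same stages. In bulk RNA, fewer cells of a type cannot be told apart from less RNA per cell. Between E12.5 and E14.5, 46.6% of all genes tested passed, 25.5% higher and 21.1% lower, and the counts below stand beside these shares. Of the 13 tested markers of the mesonephros and its duct, the tissue attached to the gonad, 7 were lower and 2 higher at E14.5 than at E12.5. Their summed level, relative to the 75th percentile, was 11.6 to 12.3 at E12.5, 8.22 to 9.09 at E13.5 and 6.70 to 9.18 at E14.5, and Ret was above background on no array. Spp1 made up much of that sum, with 6.33 to 7.11, 4.15 to 5.02 and 3.44 to 4.93 at the 3 stages. The others summed to 5.24 to 5.26, 4.07 to 4.11 and 3.27 to 4.26. Calb1, a marker of the duct, fell by 2.10 ± 0.20 (adjusted p = 0.00117), and Emx2, a regulator of the duct and the gonad, fell by 1.48 ± 0.15 (adjusted p = 0.0015). The 2 that rose were Osr1, by 1.02 ± 0.23 (adjusted p = 0.0152), and Pax2, by 0.82 ± 0.19 (adjusted p = 0.016). Fetal Leydig cell markers were higher for 7 of 8, with a summed level of 5.47 to 8.14, 59.8 to 69.4 and 118 to 160 at the 3 stages. Germ cell markers were higher for 7 of 10 and lower for 1, with 59.0 to 74.6, 168 to 196 and 203 to 230. Stra8, which germ cells need to enter meiosis, made up much of that sum, with 15.8 to 20.1, 87.0 to 109 and 131 to 146, and the others summed to 43.2 to 54.5, 81.2 to 86.5 and 71.8 to 84.2. Sertoli cell markers were split, 3 higher and 3 lower of 10. Of the neural markers 2 of 5 tested were higher and 1 was lower, with a summed level of 0.574 to 0.668, 0.791 to 0.935 and 1.35 to 1.73. Interstitial and peritubular markers were higher for 4 of 9, coelomic surface markers higher for 1 and lower for 1 of 6, and endothelial markers lower for 2 of 7. The part of these markers in the Hox changes was not tested.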

How the data were processed

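Agilent 1-colour arrays of 2 gonad RNAs per stage were analysed (3 stages, 6 arrays). Per the file headers, the deposited scanner files hold each spot's processed intensity, background-subtracted by Agilent Feature Extraction (version 9.5 per the submitters' processing notes). The authors' deposited table gives each probe 1 linear ratio for every stage, and its reference is unknown. Its log2 differences between stages correlated with those of the scanner values at 1 over 25611 probes bright on every array, its column medians were 0.963, 1.04 and 1.01, and it was used only to check directions.

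Outlier spots were left out, repeated spots averaged, and log2 intensities set against each array's 75th percentile, with no pseudocount. There were 41174 probes, of which 21 lacked a value on some array and were dropped. RefSeq tables named 22943 probes of 16354 genes, and 18210 probes had no symbol. For 5301 genes with several probes the brightest stood for the gene. Genes well above background on both arrays of a stage were kept (13273). The test between stages was that of limma 3.58.1 (R 4.3.3, lmFit and eBayes without trend, all 6 arrays, two-sided, 3 residual and 2.96 prior degrees of freedom), with a Benjamini-Hochberg adjusted p of 0.05 over the 13273 genes. The script was tested on simulated data. With bounded genes at their bound, the Hox medians were the same. All 6 values are given for every Hox gene that passed and did not overlap between the 2 stages, and for those above background in 1 stage only. Other members are given by range and counts, and at most 4 genes of each other list are named, with Cyp26b1. Genes named beyond that rule were chosen after their values were seen. Members and lists were chosen with earlier results of these data known.

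Deviations of same-numbered arrays correlated across genes at -0.037 (E12.5 with E13.5), -0.0635 (E12.5 with E14.5) and 0.227 (E13.5 with E14.5). With 2 arrays a stage this cannot decide whether the numbers pair arrays, and the main fit did not pair them. The series calls the arrays biological duplicates, and 2 a stage limit the precision of every value. Alternatives were normexp, quantile and median scaling, other filters, probe rules and priors, a replicate block, a minimum change of 2-fold and the fits lacking 1 array. Tables were read with pandas 2.3.3 and figures drawn with matplotlib 3.10.9 in Python 3.11.15. Some results on genes outside the Hox clusters are not reported here.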

Additional observations from a re-analysis of the deposited data

How the results depend on the processing

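With a change of at least 2-fold also asked for, 7 Hox genes in place of 15 passed at E13.5 against E12.5 and 6 in place of 16 at E14.5 against E12.5. Leaving out each array in turn gave 7 to 14 at E13.5 and 8 to 15 at E14.5, where a stage left with 1 array is assumed to vary like the others. With the test kept to genes well above background on all 6 arrays, 25 Hox genes were tested and 10 passed at E14.5. The other settings kept both counts within 1.5 times, and at E14.5 against E13.5 the count was 0 in every setting run, the 4 arrays of that slide alone and the slide as a block among them. The array number as a replicate block gave 15, 15 and 0 calls in place of 15, 16 and 0, and among the genes called it ended those of Hoxc4 (both) and Hoxd10 (E13.5) only. Of the 31 calls of single genes, 9 held in every setting that could test them other than the 2-fold minimum, those of Hoxa9, Hoxd1, Hoxd4 and Hoxd11 against E12.5 at both later stages and that of Hoxb6 at E14.5. With that minimum 6 held, those of Hoxd1, Hoxd4 and Hoxd11, and the 4 of Hoxd1 and Hoxd11 were not tested with the filter on all 6 arrays. The authors' deposited ratio, with no test, had the direction of all 31. It comes from these same arrays and its log2 differences correlated with theirs at 1, so it is no separate check. Only normexp turned a called change, for Hoxa10 at E13.5 (0.00548, adjusted p = 0.975) and Hoxa6 at E14.5 (0.056, adjusted p = 0.725), and the cause was not tested. The median change of the Hox genes was close to 0 and took either sign, from -0.12 to 0.07 at E13.5 and from -0.12 to 0.13 at E14.5. Of the 62 values not called, 10 passed under some alternative, among them Hoxb13 at both stages. Over all genes, fitting without the filter on dim genes called 2831 in place of 4255 at E13.5, and leaving out arrays as few as 1402 at E13.5 and 3884 in place of 6185 at E14.5. At E14.5 against E13.5 the count over all genes ran from 0 to 382 (normexp) around 7. The dim genes Hoxb1, Hoxb8, Hoxd1, Hoxd11 and Hoxa11 have only a bound, and their bounds and fitted changes depend on the background correction.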
